A study of Mus musculus with 6 samples.

Results

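The genes described here encode the proteins of the cytosolic ribosome, in the epidermis of mouse tail skin at a young and an advanced age. Members were chosen by gene symbol alone, as genes named Rpl or Rps with a number or Rplp0 to Rplp2, leaving out the Rps6k kinases and pseudogenes. Of 84 protein-coding genes of this kind in the RefSeq table used, 83 were named on the array, and Rpl37 was not. A gene entered the test if 3 or more of the 6 arrays detected 1 of its probes well above background, which 80 of the 83 met, out of 14141 named genes tested in all. Rpl3l, Rpl10l and Rpl39l, copies of Rpl3, Rpl10 and Rpl39, were well above background on 0 arrays.

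Both groups were wild-type C57BL/6 mice with no treatment of the animals named. The young group was 3 samples at 8 weeks. The aged group was 3 samples, with replicate 1 at 22 months and replicates 2 and 3 at 25 months, so the aged group mixes 2 ages. Epidermis was separated from dermis with EDTA, and amplified cDNA of its total RNA carried the dye Cy3 on a 1-colour Agilent array for each sample. Sex is not in the labels, nor is it said that the samples were separate animals, so a p-value here measures the spread of these 6 samples, which may be technical in part.

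A ribosome is built from ribosomal RNA and about one copy of each ribosomal protein, divided between a small subunit that reads the mRNA and a large subunit that joins amino acids. Because the proteins are needed in equal amounts, their transcripts tend to be kept in step. Their mRNAs begin with a run of pyrimidines, the 5' terminal oligopyrimidine (TOP) tract, through which mTORC1 and the RNA-binding protein Larp1 control their translation. In epidermis, ribosome production accompanies the growth of basal keratinocytes, and mouse mutants of several of these genes have dark skin, a white belly spot or a kinked tail.

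All 6 arrays lay on 1 slide and were scanned together, with young replicates 1 and 2 in its first row and the other 4 arrays in its second. The 75th percentile of signal was 230.2 to 300.3 units, 50.04% to 54.40% of the 55681 probes were well above background, and 0 were saturated. Precision is limited by there being 3 arrays per group. All 9 keratinocyte markers were well above background on all 6 arrays. Of the fibroblast markers, Lum and Pdgfra were on 0 arrays, Col1a2 and Dcn on all 6, Col1a1 on 5 and Col3a1 on the 3 young ones. The endothelial markers Cdh5 and Tek were on 0 arrays and Pecam1 and Kdr on all 6, and of the muscle markers Ckm, Des and Myh4 were on 0 and Acta1 on 5. The Y-linked transcripts Ddx3y, Eif2s3y and Kdm5d were above background only on the young and the aged array numbered 1. Both probes of Uty, also Y-linked, were above background on those arrays and 1 of them on young replicate 3 too. Of the 2 probes of Xist, 1 was above background on young replicate 1, 0 on aged replicate 1 and both on the other 4 arrays.

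The DNA around the annotated transcription starts was searched for the pyrimidine run that a TOP tract would leave there. A promoter entry was found for 60 of the 80 genes in RefSeq sequences of GRCm38.p6. The 30 bases shown, 15 before and 15 from the annotated start on, are those of the genes with the lowest p-values that have an entry, of Rps6, Rpl27a and Rpl38 (shown for their roles) and of Rps3, whose aged mean was the lower one. Capitals mark the longest unbroken run of C and T with at least 6 letters between 10 bases before and 15 after the start; other runs are left in lower case.
Rps2: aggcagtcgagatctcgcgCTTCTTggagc
Rps13: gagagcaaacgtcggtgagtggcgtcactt
Rpl18: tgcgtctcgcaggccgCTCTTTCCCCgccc
Rpl12: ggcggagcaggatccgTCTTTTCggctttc
Rpl32l: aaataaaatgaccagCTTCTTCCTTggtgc
Rpl31: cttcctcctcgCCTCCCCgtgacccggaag
Rps18: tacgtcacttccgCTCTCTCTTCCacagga
Rps6: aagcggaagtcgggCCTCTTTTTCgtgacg
Rpl27a: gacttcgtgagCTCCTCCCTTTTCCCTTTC
Rpl38: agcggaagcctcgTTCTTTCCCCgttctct
Rps3: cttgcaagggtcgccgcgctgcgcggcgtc
These windows lie at chr17:24720048-24720077 for Rps2, chr7:45718056-45718085 for Rpl18, chr2:32961697-32961726 for Rpl12, chr10:20208424-20208453 for Rpl32l, chr1:39367836-39367865 for Rpl31, chr7:109519180-109519209 for Rpl27a and chr11:114668565-114668594 for Rpl38, all on the plus strand. On the minus strand they lie at chr7:116334176-116334205 for Rps13, chr17:33955651-33955680 for Rps18, chr4:86857353-86857382 for Rps6 and chr7:99483695-99483724 for Rps3. The run in Rpl27a goes on past the end of its window. The run in Rps2 begins at the fifth base from the start. Rps13 and Rps3 have no such run in these bases, which says nothing about their mRNAs' true first base.

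A run of at least 6 pyrimidines on the gene's strand within 10 bases before and 15 after the start was present in 35 of the 60 promoters (58.3%), against 27.6% of 27025 genes. The ETS-type letters CCGGAAG, searched on both strands from 250 bases before to 50 after the start, were in 23 of the 60 (38.3%), against 9.93% of all genes. The YY1-type letters AAGATGGC were in 6 (10.0%, against 3.19%) and the TATA letters TATAAA in 8 (13.3%, against 15.7%). The ETS-type match is in capitals in the 150 bases before the start of the 2 genes shown next, Rps2 (chr17:24719913-24720062, plus strand) and Rps18 (chr17:33955666-33955815, minus strand).
Rps2: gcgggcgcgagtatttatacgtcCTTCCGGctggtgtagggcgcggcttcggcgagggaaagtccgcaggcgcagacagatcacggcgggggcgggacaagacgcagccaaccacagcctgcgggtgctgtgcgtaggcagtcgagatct
Rps18: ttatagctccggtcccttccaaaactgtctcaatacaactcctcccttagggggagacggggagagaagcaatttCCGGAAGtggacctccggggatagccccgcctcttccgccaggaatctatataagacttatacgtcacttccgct
The median difference with age was 0.19 (log2) for the 35 genes with a pyrimidine run and 0.20 for the 25 without, and 0.19 with and 0.20 without the ETS-type letters. Members with and without these letters thus had medians that lay close together. A match is a description of letters, not of a bound site.

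Ribosomal protein transcripts were slightly higher in aged than in young epidermis, in nearly all members but in none past the threshold. Of the 80 genes, 78 had a higher mean in the aged group (97.5%, against 63.6% of all named genes tested). The median difference was 0.18 on the log2 scale, with a range of -0.017 to 0.35, against a median of 0.093 over all named genes. In 52 members the 3 aged values all lay above the 3 young values (65.0%, against 19.5% of all named genes), and 0 members had all aged values below (against 7.50%). The number past an adjusted p of 0.05 (limma, Benjamini-Hochberg over all features) was 0 of 80, against 0.0778% of all named genes, and the lowest adjusted p was 0.210, for Rps2. At an unadjusted p under 0.05 there were 14 members, all higher in the aged group (17.5%, against 11.4% of all named genes). With the replicate number as a block, 4 members had such a p (5%, against 11.5% of all named genes), below the background share, and the number of named genes past the threshold went from 11 to 0.

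The median standard error of a member's difference was 0.11, beside the median difference of 0.18. The members varied little within a group, with a median pooled SD of 0.084, against 0.20 over all named genes. limma draws each gene's variance towards that of all genes, which widens the error of such even genes. An exact permutation test of 3 arrays against 3 reaches a p of 0.1 at best and was not used.

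The shift was present on each aged array and was largest on aged replicate 3. The median deviation of the 80 genes from their young mean was 0.0074, -0.038 and 0.031 on young replicates 1, 2 and 3, and 0.12, 0.15 and 0.27 on aged replicates 1, 2 and 3. Over all named genes the same medians were 0.030, -0.015 and -0.017 on the young arrays and 0.049, 0.076 and 0.17 on the aged arrays. The members' median exceeded that of all genes by 0.071, 0.075 and 0.10 on the aged arrays, and differed from it by -0.023, -0.023 and 0.048 on the young arrays. Aged replicate 3 was the highest array for 71 of the 80 members, and young replicate 2 the lowest for 50. Aged replicate 3 was also the array with the lowest 75th percentile of signal, 230.2 units; the part of array-wide signal in the shift was not tested.

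**Figure D1:**
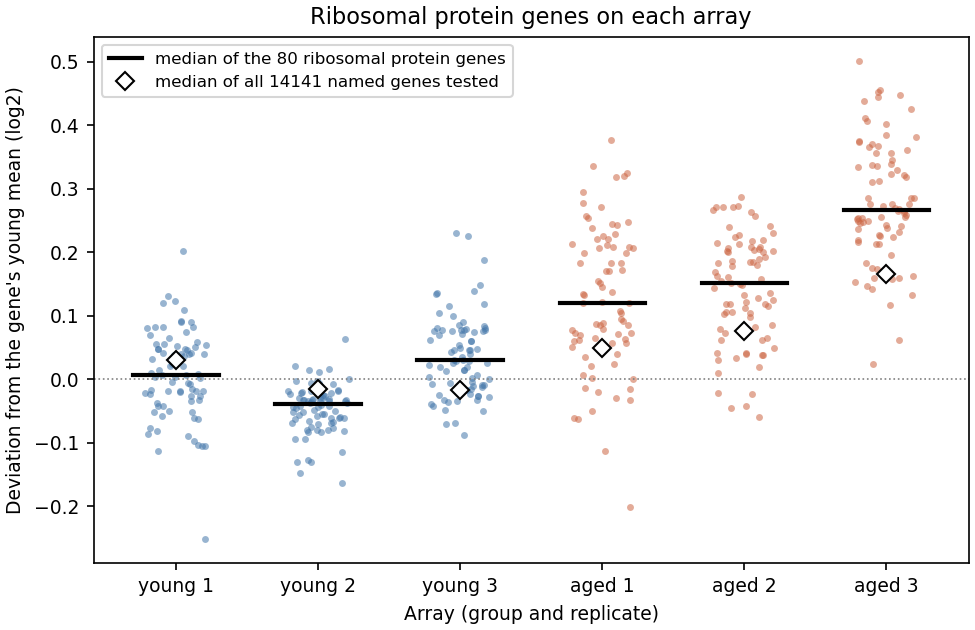
Deviation of each of the 80 ribosomal protein genes from its young mean (log2, vertical axis) on each of the 6 arrays (horizontal axis); points are genes, bars their median, and diamonds the median of all 14141 named genes tested. The bars lie at 0.12, 0.15 and 0.27 on the aged arrays, above the diamonds at 0.049, 0.076 and 0.17.

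The number of members at an unadjusted p under 0.05 rested on the full set of arrays. It was 0 without young replicate 2 (against 5.37% of all named genes higher at that p) and 0 without aged replicate 3 (against 9.11%). It was 1 without young replicate 3 (5.79%), 2 without aged replicate 2 (7.95%), 7 without young replicate 1 (12.0%) and 7 without aged replicate 1 (14.2%). In each of these fits the share of members was below that of all named genes, while 14 of 80 with all arrays was above it. The median difference stayed between 0.13 and 0.21 in these 6 fits, and at least 73 of the 80 genes were higher in each. With the slide row as a block, which compares the aged arrays with young replicate 3 alone, the median was 0.17, 69 of 80 genes were higher (against 63.7%) and 0 had an unadjusted p under 0.05 (against 3.29%), beside an all-gene median of 0.11.

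The scaling of the arrays set the size of the shift. With arrays scaled to their median the members' median was 0.26 and that of all genes 0.17, and 80 of 80 members were higher (against 72.3%). After quantile normalization the medians were 0.10 and 0.057, and 70 of 80 members were higher (against 59.1%). Relative to all genes the members stood 0.092 higher as reported, 0.043 higher with quantile normalization and 0.055 higher with the slide row as a block. Median scaling moves every gene of an array by the same amount, so it could not change the gap of 0.092.

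**Figure D2:**
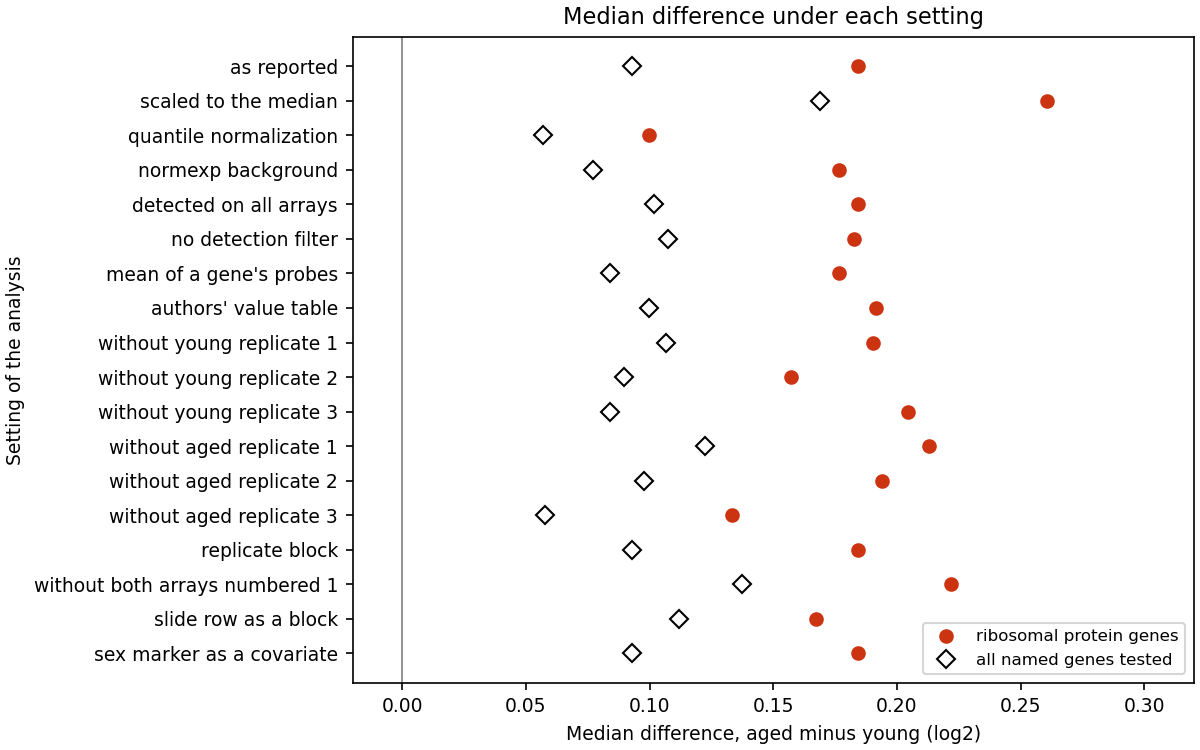
Median difference, aged minus young (log2, horizontal axis), of the 80 ribosomal protein genes (filled circles) and of all named genes tested (open diamonds) under each setting of the analysis (vertical axis). The circle lies to the right of the diamond in each row, with the smallest gap, 0.043, under quantile normalization. Median scaling, the replicate number as a block and the Y-linked covariate cannot change the gap.

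Of the 31 small subunit genes tested, 29 were higher in the aged group (93.5%, against 63.6% of all named genes) and 21 did so without overlap (67.7%, against 19.5%), with a median difference of 0.16. Rps2 lies at the entrance of the mRNA channel. Its log2 values, relative to the array's 75th percentile as for all levels here, were 7.89, 7.75 and 7.81 in the young and 8.14, 8.08 and 8.27 in the aged samples. All 3 aged values were above all 3 young ones, and the difference of 0.35 ± 0.11 (SE, n = 3 per group), 1.27-fold, had an adjusted p of 0.210. Rps13, a protein at the face that meets the large subunit, read 8.12, 8.02 and 8.19 in the young and 8.40, 8.40 and 8.48 in the aged samples. These groups did not overlap either, with a difference of 0.32 ± 0.11 and an adjusted p of 0.221. Rps18, a protein of the small subunit's head, read 7.70, 7.58 and 7.58 in the young and 7.83, 7.89 and 8.07 in the aged samples. Aged replicate 3 was its highest array, and its difference was 0.31 ± 0.12 (adjusted p 0.253).

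The 2 members with a lower aged mean were both of the small subunit. Rps3, which lines the mRNA entrance beside Rps2 and also acts in DNA repair, read 7.12, 7.02 and 7.41 in the young and 7.16, 7.14 and 7.21 in the aged samples. Young replicate 3 was its highest array and the aged values lay inside the young range, for a difference of -0.017 ± 0.14 (adjusted p 0.960). Rps24, a gene mutated in some families with Diamond-Blackfan anemia, read 8.15, 8.24 and 8.40 in the young and 8.21, 8.20 and 8.32 in the aged samples. It too was highest in young replicate 3, and its difference was -0.016 ± 0.12 (adjusted p 0.956). Both signs turned with median scaling, to 0.060 for Rps3 and 0.061 for Rps24. That scaling raises the difference of every gene by the same amount. Of the 3 genes at the mRNA entrance, Rps9 was 0.17 higher without overlap. At the mRNA exit, Rps14 was 0.046 higher with overlap, and Rps26 and Rps28 were 0.16 and 0.20 higher without overlap.

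Rps6 is the small subunit protein that the S6 kinases phosphorylate downstream of mTORC1. It read 7.73, 7.62 and 7.69 in the young and 7.86, 7.92 and 8.02 in the aged samples. The groups did not overlap, and the difference was 0.26 ± 0.11 (adjusted p 0.279). The arrays measure the transcript and not the phosphorylation. Rps27a, made as a fusion with ubiquitin, was 0.16 ± 0.10 higher without overlap (adjusted p 0.435).

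Of the 46 large subunit genes tested, 46 were higher (against 63.6% of all named genes) and 30 did so without overlap (65.2%, against 19.5%), with a median difference of 0.19. Rpl18, a protein on the solvent side of the large subunit, read 7.84, 7.72 and 7.81 in the young and 8.01, 8.05 and 8.24 in the aged samples. The groups were apart, and the difference was 0.31 ± 0.12 (adjusted p 0.247). Rpl3, which reaches towards the site where peptide bonds form, read 7.85, 7.70 and 7.73 in the young and 8.08, 7.98 and 8.07 in the aged samples. Here aged replicate 3 was not the highest array, and the difference was 0.28 ± 0.11 (adjusted p 0.250). Rpl12, at the base of the stalk, read 8.80, 8.75 and 8.82 in the young and 9.03, 9.01 and 9.15 in the aged samples. Its difference was 0.27 ± 0.10 with no overlap (adjusted p 0.250).

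The 8 tested genes around the mouth of the tunnel through which the new peptide leaves the ribosome were all higher, 5 of them without overlap (62.5%, against 19.5% of all named genes), with a median of 0.22. Rpl31 read 7.24, 6.97 and 7.14 in the young and 7.49, 7.38 and 7.40 in the aged samples. Its groups did not overlap, and its difference of 0.31 ± 0.12 had an adjusted p of 0.250. The other tested probe of Rpl31, with a mean level of 1.27 against 7.27, gave -0.060 with overlap. With the mean of its probes, Rpl31 differed by 0.13 ± 0.16. Rpl39, a small protein inside the tunnel, differed by 0.28 ± 0.12 (adjusted p 0.266). Rpl26 was 0.23, Rpl19 0.23 and Rpl17 0.20 higher without overlap. Rpl22, Rpl35 and Rpl23a overlapped between the groups, at 0.20, 0.11 and 0.092.

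**Figure D3:**
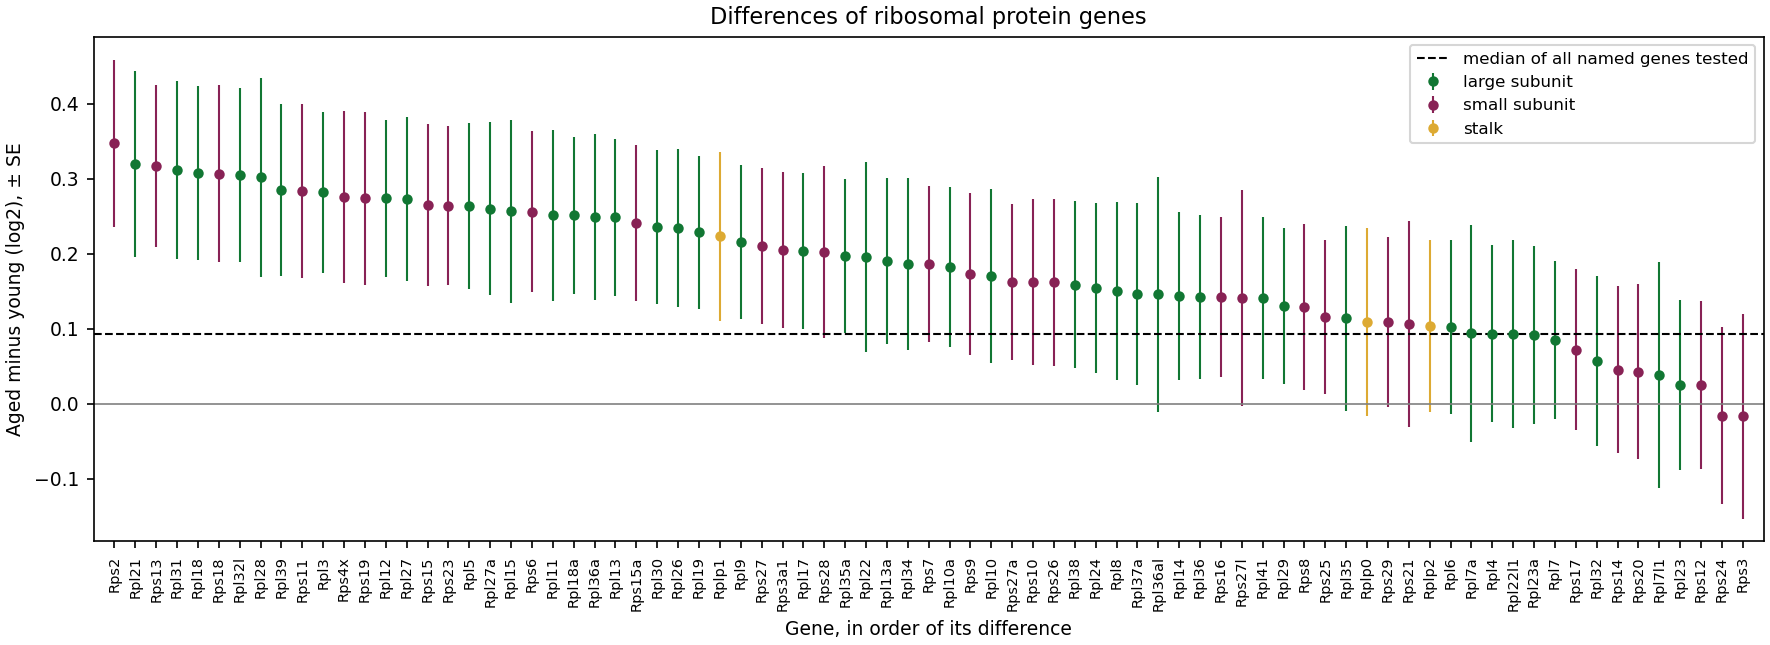
Difference of 79 of the 80 ribosomal protein genes, aged minus young (log2, vertical axis), with its standard error (3 arrays per group), in order of size along the horizontal axis and coloured by subunit; the dashed line is the median of all named genes tested, 0.093. Differences run from 0.35 for Rps2 to -0.017 for Rps3, and 68 of the 79 lie above the dashed line.

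The stalk recruits the elongation factors to the ribosome and is formed by Rplp0 with Rplp1 and Rplp2. Rplp0, often used as a reference gene, read 8.83, 8.90 and 9.08 in the young and 8.99, 8.97 and 9.18 in the aged samples. The groups overlapped, with a difference of 0.11 ± 0.13 (adjusted p 0.670), which turned to -0.029 with the slide row as a block. Other tested probes of Rplp0 gave 0.25 without overlap and 0.23 with overlap. Rplp1 read 8.76, 8.76 and 8.82 in the young and 8.89, 9.01 and 9.12 in the aged samples, without overlap, a difference of 0.22 ± 0.11 (adjusted p 0.343). Rplp2 overlapped, at 0.10 ± 0.11 (adjusted p 0.656).

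Rpl5 and Rpl11 form a particle with 5S ribosomal RNA that, when free of the ribosome, binds Mdm2 and stabilises p53. Rpl5 read 6.36, 6.27 and 6.43 in the young and 6.63, 6.53 and 6.69 in the aged samples. Rpl11 read 8.84, 8.68 and 8.75 in the young and 8.95, 8.95 and 9.12 in the aged samples. Both genes were apart between the groups, by 0.26 ± 0.11 (adjusted p 0.279) and 0.25 ± 0.11 (adjusted p 0.305).

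Several members have a close relative that can take their place in the ribosome or is expressed in few tissues. Rpl22 was 0.20 ± 0.13 and its relative Rpl22l1 0.093 ± 0.13 higher. Rpl7 was 0.085 ± 0.11 and Rpl7l1 0.038 ± 0.15 higher, and Rpl7l1 fell on either side of 0 when single arrays were left out, from -0.051 to 0.16. Rpl36a was 0.25 ± 0.11 higher without overlap and Rpl36al 0.15 ± 0.16 with overlap. Rps27 was 0.21 ± 0.10 higher without overlap and Rps27l, a p53 target, 0.14 ± 0.14 with overlap. As reported, the parent gene had the larger difference in each pair, but the difference between relatives was not tested. The order turned for Rpl7 (-0.0031) and Rpl7l1 (0.092) with quantile normalization. Without young replicate 1 it turned for Rpl7 (0.064) and Rpl7l1 (0.10), and for Rps27 (0.20) and Rps27l (0.24). The other pairs kept their order in these fits. Without aged replicate 1, Rpl7l1 (0.16) and Rpl36al (0.28) exceeded Rpl7 and Rpl36a. The order turned for some pairs also with the slide row as a block and without both arrays numbered 1. Rpl7l1 also read far lower than Rpl7, with young means of -1.35 and 7.98. Adjusted p-values in these pairs ran from 0.299 for Rpl36a to 0.914 for Rpl7l1.

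Rpl32l, a gene listed as a copy of Rpl32, read 7.67, 7.61 and 7.75 in the young and 7.88, 7.95 and 8.11 in the aged samples, a difference of 0.31 ± 0.12 (adjusted p 0.250). Rpl32, named here after its values were seen, read 8.28, 8.40 and 8.45 in the young and 8.36, 8.42 and 8.53 in the aged samples, with overlap and a difference of 0.058 ± 0.11 (adjusted p 0.819). Ribosomal protein genes have many near-identical copies in the genome, and probe sequences were not used here, so a probe may read the transcript of more than the gene it is named for. Rps4l fits the symbol pattern but is a transcribed pseudogene in RefSeq and was not counted. It differed by 0.16 ± 0.18 (adjusted p 0.661), beside 0.28 ± 0.11 (adjusted p 0.275) for Rps4x.

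Genes whose mouse mutants have a skin, pigment or tail phenotype had unequal differences. Mutants of Rps19 and Rps20 have dark skin. Rps19 read 7.28, 7.07 and 7.13 in the young and 7.48, 7.35 and 7.48 in the aged samples, without overlap and with a difference of 0.27 ± 0.12 (adjusted p 0.281). Rps20 read 8.77, 8.87 and 8.93 in the young and 8.79, 8.89 and 9.02 in the aged samples, which overlapped, at 0.043 ± 0.12 (adjusted p 0.872), and it turned to -0.048 after quantile normalization. Mutants of Rps7, Rpl24, Rpl27a and Rpl38 have changes of pigment, tail or skeleton. Their differences were 0.19, 0.15, 0.26 and 0.16, without overlap except in Rpl24, with adjusted p-values of 0.298 to 0.495. By other tested probes, Rpl24 was 0.31 higher without overlap and Rpl38 0.047 higher with overlap. Those of Rpl27a gave 0.32 without and 0.15 with overlap.

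Diamond-Blackfan anemia is an inherited failure of red cell production caused by loss of one copy of a ribosomal protein gene. Of 19 such genes tested, 18 were higher (against 63.6% of all named genes) and 16 did so without overlap (84.2%, against 19.5%), with a median of 0.21, beside 0.18 for all 80 members. The 4 X-linked members Rps4x, Rpl10, Rpl36a and Rpl39 were all higher without overlap, by 0.28, 0.17, 0.25 and 0.28. The same held for 65% of all 80 members and 19.5% of all named genes. By its other tested probes, Rpl10 was 0.042 and 0.024 higher, with overlap. Those of Rpl36a gave 0.28 each without overlap, and those of Rpl39 0.30 without and 0.24 with overlap. Leaving out the 2 arrays numbered 1, on which Ddx3y, Eif2s3y and Kdm5d were above background, gave a median over all 80 members of 0.22, beside 0.14 over all named genes. Aged replicate 1 is also the only sample at 22 months, so this fit drops that age as well.

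Some ribosomal proteins have symbols outside the pattern. Rpsa, a small subunit protein also known as laminin receptor, read 8.22, 8.21 and 8.34 in the young and 8.58, 8.60 and 8.64 in the aged samples. The groups were apart, and the difference was 0.35 ± 0.10 (adjusted p 0.199). Rack1 and Fau overlapped, at 0.12 and 0.10.

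Genes that build ribosomes or share their control were compared from lists of the pathway, and 0 genes of each list passed limma's threshold. At an unadjusted p under 0.05 and higher there were 4 ribosome biogenesis genes (6.15%), 4 genes of the TOP mRNA list (26.7%) and 0 mTORC1 genes, against 11.4% of all named genes. With the replicate number as a block these counts were 1, 4 and 0, against 11.5%. Of 65 ribosome biogenesis genes tested of 66 on the array, 53 were higher (81.5%, against 63.6% of all named genes), 12 of them without overlap (18.5%, against 19.5%), and 1 was lower without overlap, with a median of 0.12. The 4 with the lowest p-values were Taf1d (0.39), Polr1c (0.37), Polr1d (0.28) and Rrn3 (0.27), with adjusted p-values of 0.218 to 0.267. They serve transcription by RNA polymerase I, and other genes of that machinery in the list gave unlike values, with -0.29 for Taf1b, 0.043 for Ubtf, 0.065 for Polr1a and 0.19 for Polr1b, which were named after their values were seen. Of 15 translation factors and other genes with TOP mRNAs, 14 were higher, 7 without overlap (46.7%, against 19.5% of all named genes), with a median of 0.14. They were led by Eif3f (0.36), Eif3h (0.36), Eef2 (0.34) and Eif4b (0.29), with adjusted p-values of 0.192 to 0.265.

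Of 19 mTORC1 genes, 9 were higher (47.4%, against 63.6% of all named genes), 3 of them without overlap (15.8%, against 19.5%). There was 1 gene lower without overlap (against 7.50% of all named genes). The list's median was -0.00042, below the 0.093 of all named genes. Deptor, an inhibitor of mTOR, was 0.39 ± 0.17 higher and Rheb, its activator, 0.25 ± 0.13 higher, both without overlap (adjusted p 0.283 and 0.345). Akt1s1 was 0.30 higher and Sesn1, another inhibitor of the pathway, 0.42 log2 units lower (-0.42), both with overlap. The mitochondrial ribosome, a separate machine in another compartment, had 75 of 77 tested genes higher, with a median of 0.21, close to that of the cytosolic ribosome. Its groups were apart in 21 genes (27.3%, against 19.5% of all named genes), beside 52 of 80 in the cytosolic set. At an unadjusted p under 0.05 there were 11 genes (14.3%, against 11.4%), or 7 with the replicate number as a block (9.09%, against 11.5%). The sets were not tested against each other.

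**Figure D4:**
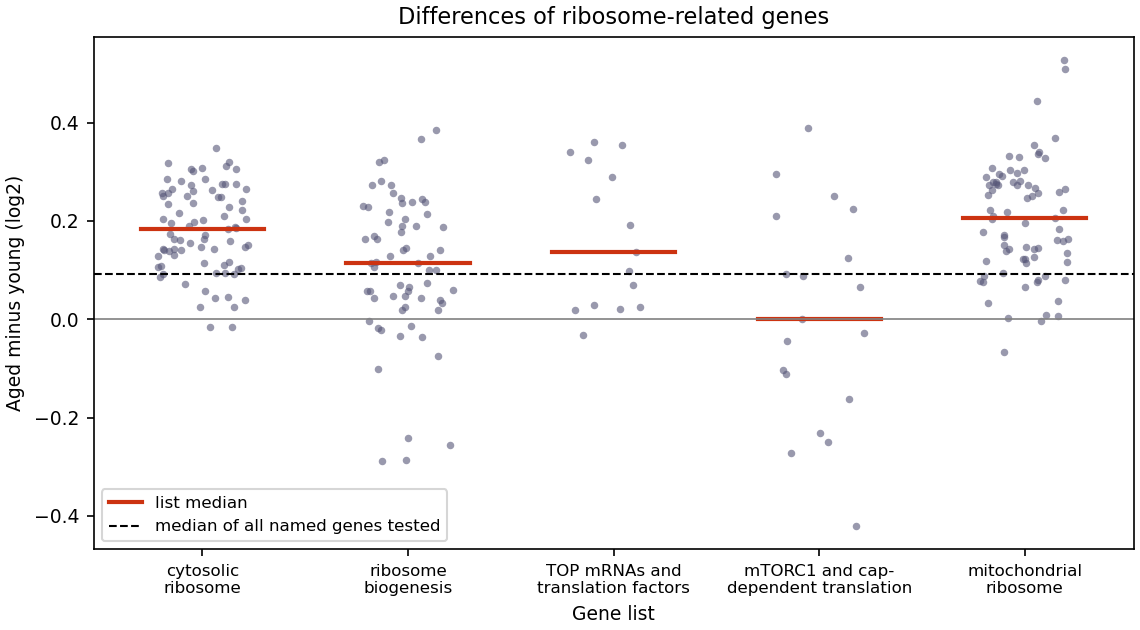
Differences, aged minus young (log2, vertical axis), of the tested genes of the cytosolic ribosome and of 4 related lists (horizontal axis); points are genes, red bars list medians, and the dashed line the median of all named genes tested. Medians are 0.18 for the cytosolic and 0.21 for the mitochondrial ribosome, against -0.00042 for the mTORC1 list.

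All 14 hair shaft and root sheath markers were lower in the aged group, with a summed linear level, relative to the array's 75th percentile, of 1304 to 1969 in the young and 106 to 1076 in the aged samples. All 8 melanocyte markers and 8 of 9 Langerhans and dendritic cell markers had a lower aged mean, with summed levels of 15.4 to 19.4 against 5.21 to 14.0, and of 14.3 to 19.9 against 4.73 to 18.6. Of the fibroblast markers 3 of 4 tested were lower, with summed levels of 5.30 to 8.15 in the young and 2.51 to 20.6 in the aged samples. The 20.6 was that of aged replicate 1. Of these 4 markers 2 passed limma's threshold, both lower (lowest adjusted p 0.028), against 0.0778% of all named genes. With the replicate number as a block 0 of them passed. The summed level of the 80 ribosomal protein genes was 21817 to 23167 in the young and 24254 to 27081 in the aged samples. That of the 9 keratinocyte markers was 2589 to 2726 and 2623 to 2896. The part of these cells in the ribosomal protein values was not tested, and in bulk tissue a change in the mix of cells and a change in RNA per cell cannot be told apart.

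Different probes of one gene mostly ran the same way. Of the 162 tested probes of the 80 genes, 150 were higher in the aged group and 94 did so without overlap. No share over all tested probes is given here. Over all named genes, each by its brightest probe, 63.6% were higher and 19.5% were so without overlap. Probes of the same gene are not independent of each other. Of 50 genes with several tested probes, 40 had all of them higher, 0 all lower and 10 had both signs, and the median range between probes of a gene was 0.14. The widest was Rpl6, a large subunit protein with 4 tested probes. Its brightest probe gave 0.10, and 2 others gave 0.25 each. The dimmest read 4.54, 3.25 and 4.79 in the young and 2.04, -0.27 and -1.14 in the aged samples, a difference of -3.99. The hair marker list deviated from its young mean by medians of -0.74, -3.05 and -5.79 on aged replicates 1, 2 and 3, the same order of arrays; any link between the 2 was not tested. Rps24 had a dim probe at -0.88, beside -0.016 and 0.084 for its other 2, and Rps3 a dim probe at 0.32 beside its brightest at -0.017.

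**Figure D5:**
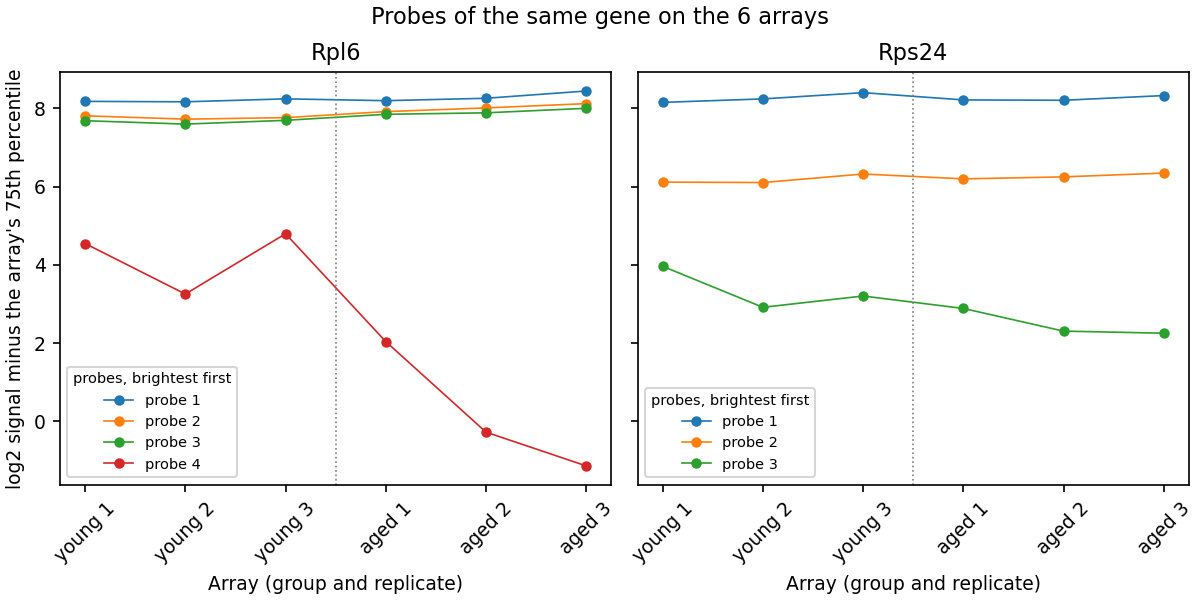
Log2 signal relative to the array's 75th percentile (vertical axis) of each tested probe of Rpl6 and Rps24 on the 6 arrays (horizontal axis); lines join the values of 1 probe. The dimmest probe of Rpl6 goes from 4.54, 3.25 and 4.79 to 2.04, -0.27 and -1.14 while its 3 other probes give differences of 0.10 to 0.25.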

How the data were processed

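Feature Extraction 11.5.1.1 read the arrays, per the file headers. The authors deposited its processed signal, a linear intensity per spot after background subtraction within each array; the headers record no scaling from one array to another. The authors' deposited table holds log2 values of probes, centred on each probe (set against the scanner values, from which it follows), and served as an alternative; its column medians were -0.01, -0.02 and -0.02 for the young and -0.01, 0.02 and 0.07 for the aged replicates.

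Each processed signal was put on the log2 scale, and the 75th percentile of its array was subtracted. Control spots and scanner-marked outlier spots, of which each array had 116 to 170, were dropped before replicate spots were averaged. Probes were named through RefSeq accessions of GRCm38.p6 (28325 of 55681 probes, 21364 genes). Probes well above background on at least 3 arrays were kept, with the brightest representing a gene, which gave 14141 genes and 10939 unnamed probes, 25080 features. The groups were tested with limma 3.58.1 under R 4.3.3 (lmFit, eBayes, two-sided), with Benjamini-Hochberg adjustment over all features and a threshold of 0.05. At that threshold 11 named genes passed, 6 higher and 5 lower; the count was 0 when a block for replicate number entered the fit. Both groups carry replicate numbers 1 to 3 in the titles. After subtraction of group means, the samples sharing a number had correlations over the named genes tested of 0.413, 0.254 and 0.134. The numbers were therefore entered as a block in an alternative fit. The p-values, adjusted p-values and standard errors given here come from the fit without a block, unless an alternative is named. No label says what a number stands for, and young replicate 2 correlated more with aged replicate 3 (0.294) than with its own number. The code was tested on simulated data.

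Members followed a rule on gene symbols, but this rule and the lists were chosen with earlier results of these data known. Genes named with values were up to 8 per direction by p, paralogs, stalk, 5S particle, Rps6 and genes with skin, pigment or tail mutants, and up to 4 per related list. Genes printed with differences only come from role groups; 2 genes of the lists are not reported here by name. Alternatives covered scaling, background correction (normexp, offset 50, on median signals, since no mean signal was used here), detection filter, probe choice, the authors' table, left-out arrays, the replicate number as a block and, added after seeing the data, the slide row and a Y-linked signal covariate.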

Additional observations from a re-analysis of the deposited data

How the results depend on the processing

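The count of ribosomal protein genes past the threshold was 0 in all 17 alternatives. Of 510 values of the 30 named genes under alternatives, 495 kept their direction and 15 reversed. The 495 include fits with the replicate number as a block or the Y-linked covariate, which are balanced and cannot change a difference. They also include the detection filters, which left the difference of each of these genes the same. Reversals were Rps24 (0.061) and Rps3 (0.060) with median scaling, Rpl7 (-0.0031) and Rps20 (-0.048) with quantile normalization, Rps3 (0.15) with the mean of a gene's probes, and Rplp0 (-0.029) and Rps20 (-0.026) with the slide row as a block. With arrays left out, Rps20 ranged from -0.016 to 0.096, Rpl7l1 from -0.051 to 0.16, Rps24 from -0.072 to 0.052 and Rps3 from -0.098 to 0.096. The members' median moved to 0.26 with median scaling and 0.10 with quantile normalization. Members at an unadjusted p under 0.05, 14 as reported, numbered 2 with quantile normalization (against 10.3% of all named genes higher at that p), 36 with normexp (14.4%), 1 without a detection filter (6.23%), 5 without both arrays numbered 1 (16.3%), 0 with the slide row as a block (3.29%), 4 with the replicate number as a block (11.5%) and 0 to 7 with single arrays left out. Of all named genes, 11 passed the threshold as reported, against 21 with median scaling, 7 with quantile normalization, 3 with detection required on all arrays, 1 without a filter, 215 without both arrays numbered 1, 0 with the slide row as a block, 20 with the Y-linked covariate and 0 to 810 with single arrays left out (810 without aged replicate 1, 0 without any other). The causes were not tested. With the replicate number as a block, 0 named genes passed, and it changed no call of a named ribosomal protein gene, since none passed in either fit. Slide or scan as a block was not run, since the headers give 1 of each. Precision is limited by 3 arrays per group: the median standard error of a member's difference was 0.11, beside the median difference of 0.18.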

Other observations

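In a split by mean signal chosen after the data were seen, members and other genes were set side by side within a range of log2 level. At a level of 4 to 6 the median difference was 0.14 for 3 members and 0.14 for 1453 other genes, and at 6 to 7 it was 0.18 for 4 members and 0.12 for 233 others. At 7 to 8 it was 0.25 for 30 members and 0.080 for 110 others, of which 86.7% and 25.5% were higher without overlap. At 8 or more it was 0.15 for 42 members and -0.021 for 74 others, of which 57.1% and 6.76% were higher without overlap. Across the 80 members the difference and the mean signal gave a Pearson's r of 0.062 and a Spearman's rho of -0.18, across genes that share the same 6 arrays and are not independent replicates.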
